A study of Mus musculus with 6 samples.

Results

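Adipocyte genes were followed on 6 Affymetrix arrays of mouse RNA, by the rule of taking 10 named genes: the adipokine genes Adipoq, Retn, Cfd and Lep, the lipid droplet genes Plin1, Plin4, Cidea and Cidec, and the fatty acid uptake genes Cd36 and Lpl. A probe set with a gene symbol was found for 9 of the 10, out of 19505 gene symbols and 22206 probe sets that are not controls, and Cfd is not analysed here. Each of the 9 had 1 probe set. All arrays were labelled as colon of C57BL/6J mice, with no age given in the labels. The 3 control arrays carry PBS in their titles and are labelled as control mice, and the 3 MBELN arrays came from mice that took exosome-like nanoparticles from mulberry bark by mouth, in 100 µl, daily for 7 days. Whether the arrays of a group are separate animals is not in the labels, so a p-value here reflects spread between arrays. That spread includes the different tissues whose genes the arrays carried, described below, and part of it may be technical.

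Fat cells store triglyceride in a single large droplet (white fat) or in many small ones surrounded by mitochondria (brown fat). Perilipins coat the droplet and gate the lipases that break it down, and CIDE proteins fuse droplets. Lipoprotein lipase frees fatty acids from circulating triglyceride and CD36 carries them into the cell, a pair of steps also used by heart, muscle and macrophages. Adiponectin, leptin and resistin are hormones that fat cells secrete. In a colon sample, fat cells would be those of the mesentery or of the gut wall.

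A gene is called above background on an array here if its log2 value lay over the 95th percentile of the negative-control probe sets of the same array. This threshold was 8.14, 10.11 and 8.89 for control 1 to 3 and 7.93, 9.34 and 8.47 for MBELN 1 to 3. The arrays did not show 1 tissue. Of 12 colon epithelium markers, 11 were above background on control 1 and at most 1 on any other array, so the labelled tissue was not seen on 5 of the 6. All 8 heart markers were above background on MBELN 1, all 8 skin epithelium markers and 6 of 8 skeletal muscle markers on MBELN 2, all 8 liver markers on MBELN 3 and all 7 measured brain markers on control 3. Control 2 was flat: 0.311% of its probe sets passed its threshold. In RNA from whole tissue, fewer cells of a type and less RNA per cell cannot be told apart.

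Of the 9 adipocyte genes, 6 were above background on MBELN 1 (Adipoq, Plin4, Cidea, Cidec, Cd36 and Lpl), where 27.7% of all probe sets were. On MBELN 2 there were 3 (Cidea, Cd36 and Lpl), against 14.3% of all probe sets, and on MBELN 3 there were 2 (Cidec and Cd36), against 23.1%. Control 1 had 2 (Adipoq and Cd36), against 26.0%, control 3 had 0, against 20.7%, and control 2 had 0, against 0.311%. No array carried the full set, and Retn, Lep and Plin1 were above background on no array, as were 57.2% of all probe sets. At the 99th percentile of negative controls the counts fell to 2 on MBELN 1 (Cd36 and Lpl), 1 on MBELN 3 (Cd36) and 0 on the other arrays. At the 90th percentile they were 7 on MBELN 1 and 4 on control 1, with Retn added on both.

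**Figure D1:**
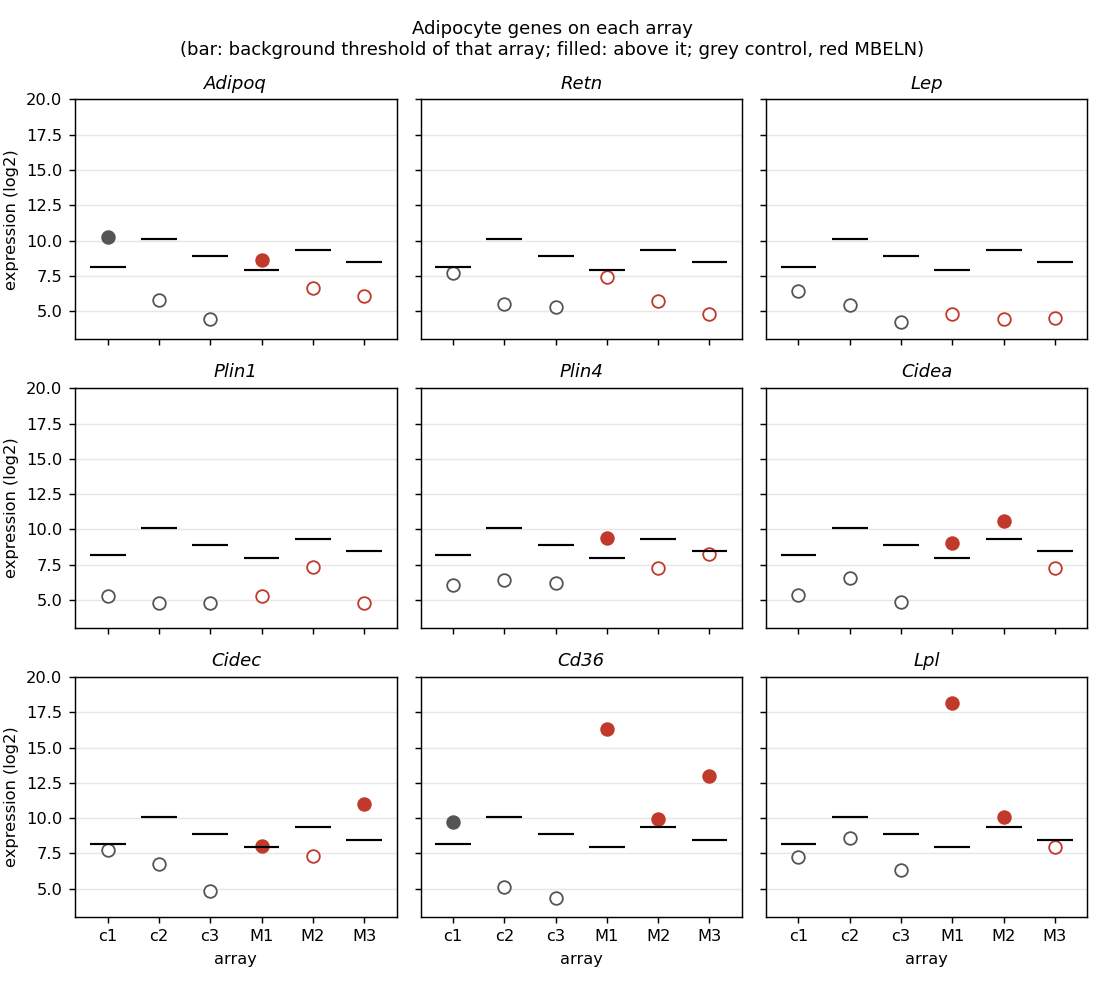
Log2 expression of the 9 measured adipocyte genes (one panel each) on the 3 control arrays (c1 to c3, grey) and the 3 MBELN arrays (M1 to M3, red), with each array's background threshold as a black bar and filled points above it. Lpl and Cd36 stand highest above the threshold on MBELN 1, Adipoq is above it on control 1 and MBELN 1, and Retn, Lep and Plin1 stay below it on all arrays.

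The reference table of promoters, from RefSeq on build GRCm38.p6, held 7 of the 9 measured genes, with 8 windows because Cidec has 2 starts 996 bases apart. The 250 bases upstream of the start are shown for 4 genes that were above background on different sets of arrays: Adipoq (chr16:23146286-23146535, plus strand), Plin4 (chr17:56109783-56110032, minus strand), Cidec (chr6:113435761-113436010 and chr6:113434765-113435014, minus strand) and Cd36 (chr5:17835897-17836146, minus strand). Capitals mark matches, on either strand, to AGGTCA, the half-site that PPAR and other nuclear receptors bind, to TATAA, and to CCAAT. PPARγ is the master regulator of fat cell genes.
Adipoq: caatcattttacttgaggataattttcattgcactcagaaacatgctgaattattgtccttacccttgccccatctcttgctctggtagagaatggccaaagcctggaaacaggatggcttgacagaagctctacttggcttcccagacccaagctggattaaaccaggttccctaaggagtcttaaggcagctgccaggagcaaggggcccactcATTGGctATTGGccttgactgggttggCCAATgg
Plin4: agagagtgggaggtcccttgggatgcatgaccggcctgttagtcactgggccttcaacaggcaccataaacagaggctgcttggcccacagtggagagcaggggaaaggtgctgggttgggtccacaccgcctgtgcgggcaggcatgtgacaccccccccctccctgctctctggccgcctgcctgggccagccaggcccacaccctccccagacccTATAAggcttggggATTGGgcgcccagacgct
Cidec, distal start: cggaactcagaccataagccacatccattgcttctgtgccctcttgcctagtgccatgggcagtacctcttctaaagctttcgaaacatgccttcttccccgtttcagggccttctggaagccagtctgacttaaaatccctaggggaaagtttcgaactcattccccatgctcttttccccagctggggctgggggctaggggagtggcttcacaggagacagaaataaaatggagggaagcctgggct
Cidec, proximal start: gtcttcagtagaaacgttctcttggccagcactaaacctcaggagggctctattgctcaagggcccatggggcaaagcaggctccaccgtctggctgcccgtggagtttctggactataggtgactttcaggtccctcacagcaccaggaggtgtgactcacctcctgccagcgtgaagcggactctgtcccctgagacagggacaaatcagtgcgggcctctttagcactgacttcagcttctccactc
Cd36: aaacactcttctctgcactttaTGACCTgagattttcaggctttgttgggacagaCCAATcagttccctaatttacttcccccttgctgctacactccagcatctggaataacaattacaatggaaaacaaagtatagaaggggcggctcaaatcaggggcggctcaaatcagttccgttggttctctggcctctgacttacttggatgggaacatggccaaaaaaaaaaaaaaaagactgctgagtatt

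AGGTCA was present in 1 of the 8 windows, that of Cd36, where it began 228 bases upstream of the start, and in 14.0% of all 32851 windows of the same length. TATAA was present in 2 of the 8 (Plin4 and Lep, 32 bases upstream in both) against 22.8% of all windows, and CCAAT in 3 of the 8 against 33.8%. The Adipoq window held 3 CCAAT matches, 34, 27 and 7 bases upstream. Neither Cidec window held any of the 3 motifs. The single Cidec probe set does not say which start was used.

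Adipoq encodes adiponectin, the most abundant hormone of fat cells. Its log2 values were 10.27, 5.75 and 4.45 for control 1 to 3 and 8.64, 6.62 and 6.06 for MBELN 1 to 3. Control 1, the array with colon markers, was highest and MBELN 1 next, 1.62 log2 units lower, and the other 4 arrays lay below background. The groups overlapped. MBELN arrays had a mean of 7.11 ± 1.36 (SD, n = 3) and control arrays 6.82 ± 3.05 (n = 3), a log2 difference of 0.28 (SE 1.64, limma adjusted p = 0.977). The sign of this difference turned without control 2 (-0.25), without control 3 (-0.90) and without MBELN 1 (-0.48), and without control 1 the difference was 2.0. Smooth muscle markers were above background on the same arrays: 8 of 8 on control 1 (median log2 value 18.07) and 6 of 8 on MBELN 1 (10.49), against at most 1 elsewhere (4.49 to 6.56). Their part in the Adipoq values was not tested.

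Retn encodes resistin. It stood at 7.68, 5.53 and 5.25 for control 1 to 3 and at 7.40, 5.73 and 4.76 for MBELN 1 to 3, in log2 units. Control 1 and MBELN 1 were again the highest arrays, 0.28 log2 units apart, but both lay below background, by 0.47 and 0.54 log2 units, and the groups overlapped. Lep encodes leptin, the hormone that reports fat stores to the brain. Its values were 6.42, 5.45 and 4.25 on control 1 to 3 and 4.80, 4.46 and 4.49 on MBELN 1 to 3, at least 1.72 log2 units below the threshold on each array. The log2 differences were -0.19 (SE 0.98, limma adjusted p = 0.975) for Retn and -0.79 (SE 0.66, adjusted p = 0.936) for Lep. Retn's turned to 0.57 without control 1 and to 0.41 without MBELN 3. Neither gene was measured above background in either group, so these values do not show whether it differed.

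Plin1, the perilipin that coats the droplet of mature fat cells, was below background throughout. It lay at 5.25, 4.76 and 4.79 on control 1 to 3 and at 5.28, 7.31 and 4.78 on MBELN 1 to 3, on the log2 scale. MBELN 2 was the highest array, 2.03 log2 units over the next and still 2.02 under its threshold. The groups overlapped, and the log2 difference was 0.86 (SE 0.77, limma adjusted p = 0.936), falling to 0.10 without MBELN 2. Plin4, a perilipin of nascent droplets that muscle and heart also make, had another order of arrays. Its values were 6.04, 6.42 and 6.18 on control 1 to 3, and 9.39, 7.25 and 8.22 on MBELN 1 to 3. Every MBELN array exceeded every control array, but MBELN 1 was the single one above background, with MBELN 3 under its threshold by 0.25. The log2 difference was 2.07 (SE 0.66), with an unadjusted limma p of 0.020 and an adjusted p of 0.936. As the control arrays were all below background, this is a fitted difference and not a measured fold.

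Cidea and Cidec belong to the CIDE family. Cidea is a marker of brown fat that is also known from sebaceous glands of the skin, and Cidec is the fusion protein of white fat that fatty liver also makes. The log2 values of Cidea were 5.31, 6.54 and 4.82 on control 1 to 3 and 9.06, 10.60 and 7.22 on MBELN 1 to 3. It was above background on MBELN 2, by 1.26, and on MBELN 1, by 1.13, and the groups did not overlap. MBELN arrays averaged 8.96 ± 1.69 (SD, n = 3) and control arrays 5.55 ± 0.89 (n = 3), a log2 difference of 3.41 (SE 0.99), with a limma p of 0.014 unadjusted and 0.936 adjusted. Cidec, in contrast, was highest on MBELN 3, the array with liver markers. Its log2 values were 7.71, 6.71 and 4.82 on control 1 to 3, and 7.99, 7.29 and 11.0 on MBELN 1 to 3. MBELN 3 lay 3.0 log2 units over MBELN 1, which passed its own threshold by 0.06, so the second call is marginal. The groups overlapped, with a log2 difference of 2.35 (SE 1.24, limma adjusted p = 0.936), which was 1.23 without MBELN 3 and 1.55 without control 3. No fold is given for either gene because the MBELN mean did not exceed the mean control threshold.

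Cd36, the fatty acid transporter, was the member above background on the most arrays. Its log2 values were 9.72, 5.08 and 4.30 for control 1 to 3 and 16.32, 9.91 and 12.99 for MBELN 1 to 3. The order ran from MBELN 1 through MBELN 3, 3.33 log2 units lower, to MBELN 2 and control 1, which differed by less than the spread of either group, and then to control 2 and control 3 below background. The groups did not overlap, but MBELN 2 exceeded control 1 by a margin far smaller than the SDs. MBELN arrays had a mean of 13.08 ± 3.20 (SD, n = 3) and control arrays 6.36 ± 2.93 (n = 3), a log2 difference of 6.71 (SE 2.10) with a limma p of 0.019 unadjusted and 0.936 adjusted. With 1 array left out the difference ranged from 5.09, without MBELN 1, to 8.39, without control 1. Markers of endothelium, which also makes Cd36, were above background on MBELN 1 (8 of 8, median 12.48) and MBELN 3 (2 of 8, median 6.26) and on no other array. Macrophage markers were above it on MBELN 1 (5 of 7), control 1 and MBELN 3 (3 of 7 each), control 3 (1 of 7) and neither MBELN 2 nor control 2. Their part in the Cd36 values was not tested.

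Lpl, the lipase itself, had the widest gap of the 9 between its highest and second array. Its log2 values were 7.22, 8.62 and 6.32 for control 1 to 3, all below background, and 18.18, 10.11 and 7.95 for MBELN 1 to 3, of which the last was below. MBELN 1, the array with heart markers, exceeded the next array by 8.07 log2 units. The groups overlapped through the flat control 2, and did not without it. For Lpl the mean of all 3 MBELN arrays, MBELN 3 included, was 8.19-fold the mean control threshold. MBELN 3 lay below its own threshold and entered at its measured value, so this is not a strict lower bound. Without MBELN 1 the mean of the MBELN arrays was 9.03, which did not exceed the mean control threshold of 9.05, so no excess over it remained. The log2 difference was 4.70 (SE 2.65, limma adjusted p = 0.936) and fell to 1.64 without MBELN 1, so both sizes rest on that array.

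**Figure D2:**
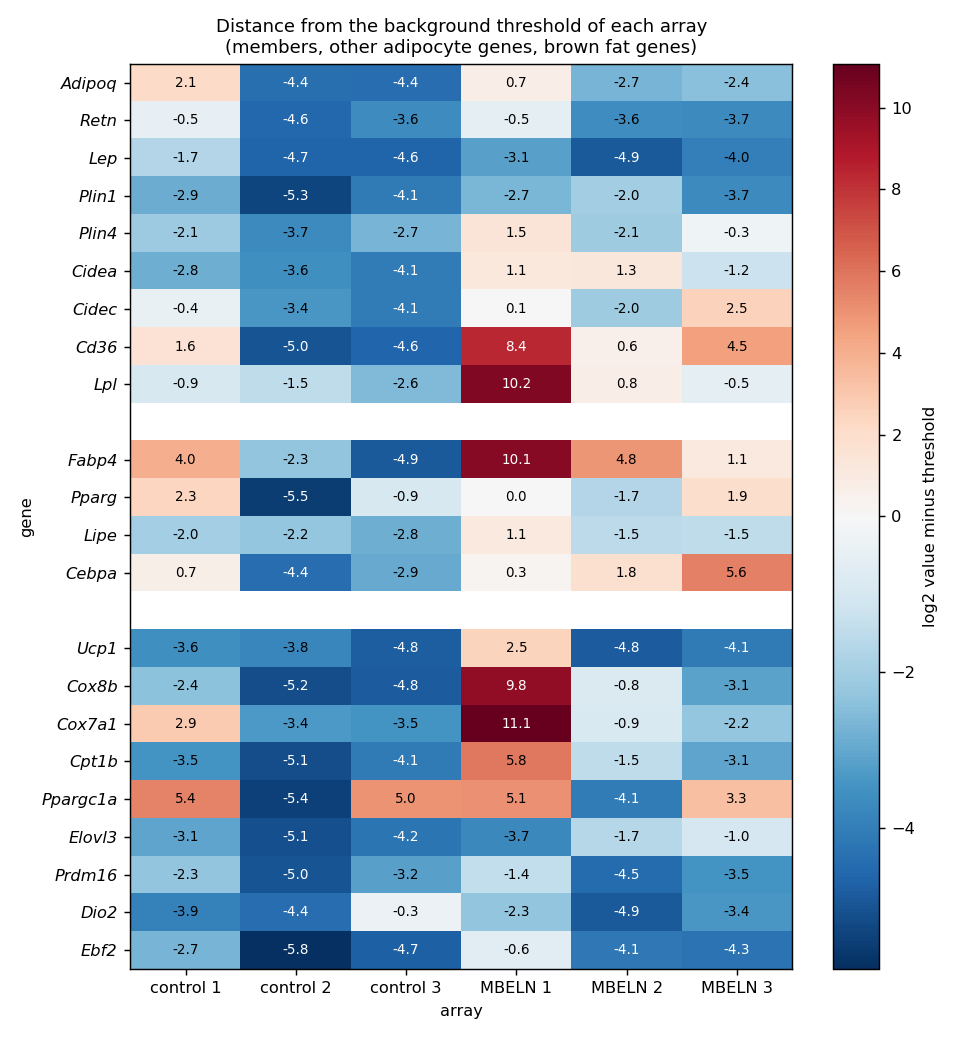
Log2 value minus the background threshold of each array (colour and number) for the 9 measured adipocyte genes, 4 further adipocyte genes and 9 brown fat genes, in rows, on the 6 arrays, in columns. Each row is read across arrays and not against another row. Among the genes shown, red cells, above background, are most frequent on MBELN 1. Lpl, Fabp4, Cox8b and Cox7a1 are far above it there, and Ucp1 is above it on MBELN 1 alone. Shown are only 4 of the 22 measured adipocyte program genes and 9 of the 17 brown fat genes. Of all 17, 8 were above background on MBELN 1 and 4 on control 3.

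Across all 9 genes, limma's test between MBELN and control arrays called 0, and 0.0% of the 22206 probe sets tested. At an unadjusted p under 0.05 there were 3 higher on MBELN arrays (Cidea, Cd36 and Plin4) and 0 lower, where 1.37% and 0.531% of all probe sets were. The same 3 genes were those whose groups did not overlap, against 3.58% of all probe sets with MBELN arrays higher, and 0 members had MBELN arrays lower, against 3.26%. Without control 2 there were 4 higher, with Lpl added, against 10.9%, and 0 lower, against 7.47%. The difference was above 0 for 7 of 9 genes, with a median of 2.07, against 49.6% of all probe sets with a median of -0.01. These sets are not alike, as 57.2% of all probe sets and 3 of the 9 genes were above background on no array. Since the arrays carried the genes of different tissues, tissue and treatment cannot be told apart in these values.

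**Figure D3:**
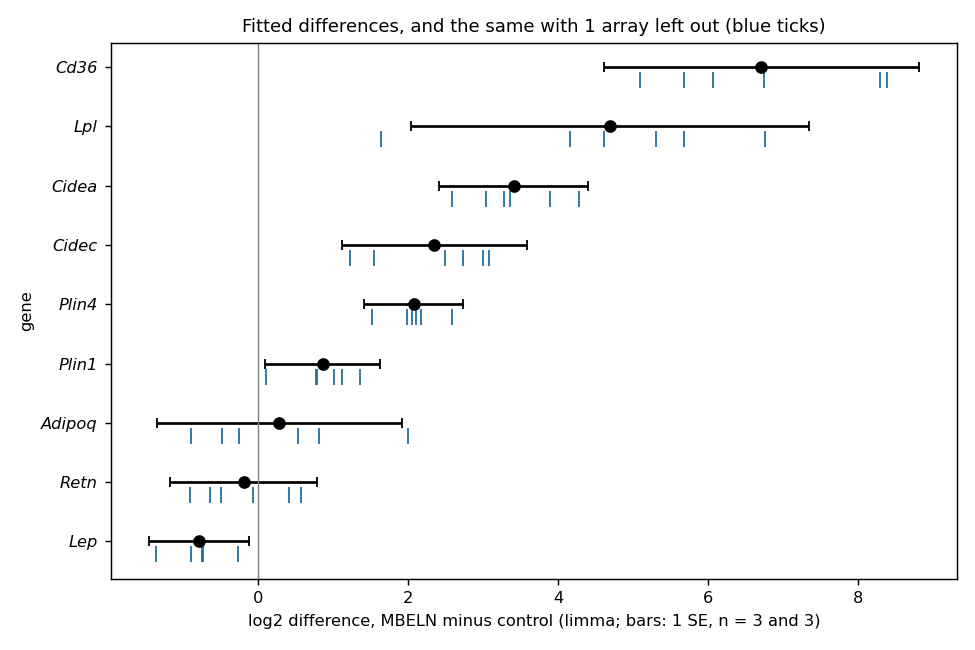
Fitted log2 differences, MBELN minus control arrays, for the 9 measured adipocyte genes, with 1 SE as bars (n = 3 and 3), and the difference with each array left out in turn as blue ticks. Cd36, Lpl, Cidea, Cidec, Plin4 and Plin1 stay above 0 in all 6, Lep stays below 0, and Adipoq and Retn have ticks on both sides.

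The adipocyte program beyond these genes was read from a list of 24, of which 22 were measured. By limma 0 passed in either direction. At an unadjusted p under 0.05, 3 were higher on MBELN arrays (Cebpa, Dgat2 and Car3) and 0 lower, against 1.37% and 0.531% of all probe sets. Of the 22 differences 18 were above 0, with a median of 1.56, against 49.6% of all probe sets. The flat control 2, and control 3 with brain markers, are part of the control mean here and for each list below. Their part in these signs was not tested. MBELN 1 to 3 had 13, 5 and 11 of the 22 above background, and control 1 to 3 had 8, 0 and 2. Fabp4, the fatty acid binding protein of fat cells and of endothelium, was at 17.99, 14.18 and 9.53 for MBELN 1 to 3 and 12.14 for control 1, all above background, and at 7.79 and 4.02 for the other control arrays, below it. Its log2 difference was 5.92 (SE 2.82). Pparg was at 10.48 on control 1 and 10.38 on MBELN 3, both above background, and at 7.90 on MBELN 1, just under the threshold of 7.93. Lipe, hormone-sensitive lipase, was above background on MBELN 1 alone (9.04, others 6.07 to 7.87). At the 99th percentile of negative controls (11.83 on control 1, 11.24 on MBELN 1 and 12.15 on MBELN 3) neither Pparg nor Lipe passed on these arrays. Car3, a carbonic anhydrase abundant in fat, liver and muscle, was at 18.12 on MBELN 3 and 15.03 on MBELN 2, and at 11.50 on control 1 and 11.11 on MBELN 1. Liver genes of the list led on MBELN 3, with the gluconeogenic gene Pck1 at 19.11 and the retinol carrier gene Rbp4 at 19.93.

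Brown fat genes were read from a list of 17. Of these, MBELN 1 to 3 had 8, 1 and 3 above background, and control 1 to 3 had 2, 0 and 4. Ucp1, the uncoupling protein that defines brown fat, was at 10.42 on MBELN 1 and at 4.10 to 6.31 on the other arrays, all below background. On MBELN 1 it did not pass the 99th percentile of negative controls (11.24). Cox8b and Cox7a1, respiratory subunits shared by brown fat, heart and muscle, were at 17.71 and 19.00 on MBELN 1, and Cpt1b, the carnitine acyltransferase of muscle and brown fat, at 13.74. Cox7a1 was also above background on control 1 (11.04). Ppargc1a, a coactivator of mitochondrial genes in many tissues, was above background on control 1, control 3, MBELN 1 and MBELN 3 (13.59, 13.84, 12.99 and 11.81). Prdm16, Ebf2 and Elovl3, further brown fat genes, were below background on all 6 arrays, and Dio2 was as well. By limma 0 of the 17 passed and 0 had an unadjusted p under 0.05, where 1.37% of all probe sets were higher and 0.531% lower. Of the 17 differences 12 were above 0, against 49.6% of all probe sets, and the median was 0.20. Heart markers stood at a median of 19.23 on MBELN 1 against 5.09 to 5.39 elsewhere, and their part in the brown fat list was not tested.

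Other lipid droplet genes numbered 16, with 10, 3 and 11 above background on MBELN 1 to 3, and 5, 1 and 3 on control 1 to 3. All 16 differences were above 0, with a median of 2.82, against 49.6% of all probe sets. By limma 0 passed, and 1 (Fitm2, higher) had an unadjusted p under 0.05, where 1.37% of all probe sets were higher. Hsd17b13, a droplet protein of liver cells, was at 19.47 on MBELN 3 and below background on the other arrays, and Cideb, the liver and gut member of the CIDE family, at 15.38 on MBELN 3 and 13.25 on control 1. Lpin1, a phosphatidate phosphatase of triglyceride synthesis, was at 17.15 on MBELN 3 and 11.30 on MBELN 1. The CIDE genes peaked on different arrays: Cidea on MBELN 2, Cidec and Cideb on MBELN 3. Plin2, the perilipin found in most cells with droplets, was above background on control 1 (12.83) and on MBELN 1 to 3 (10.79, 12.63 and 14.87).

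The partners of lipoprotein lipase were 10 measured genes of 13, with 5, 2 and 9 above background on MBELN 1 to 3, and 2, 0 and 2 on control 1 to 3. All 10 differences were above 0 (median 2.46), against 49.6% of all probe sets. By limma 0 passed, and 2 (Gpihbp1 and Angptl4, both higher) had an unadjusted p under 0.05, where 1.37% of all probe sets were higher. Gpihbp1, which holds the lipase on the capillary wall, was above background on MBELN 1 (10.97) and MBELN 3 (8.64), so MBELN 1 led for both the lipase and its anchor. Neither Gpihbp1 value passed the 99th percentile of negative controls (11.24 and 12.15). Angptl4, which inactivates the lipase, was above background on all 3 MBELN arrays (8.54, 9.85 and 10.31) and on 0 control arrays (7.66, 5.03 and 6.14). Its MBELN mean of 9.57 against the mean control threshold of 9.05 puts the MBELN mean higher by at least 1.43-fold. This holds for the means only: MBELN 1 lay below the thresholds of control 2 (10.11) and control 3 (8.89). The bound was not recomputed with 1 array left out, and the arrays carried the genes of different tissues. Angptl4 passed the MBELN thresholds by 0.61, 0.51 and 1.84. At the 99th percentile of negative controls (11.24, 14.58 and 12.15) it passed on no MBELN array. The fitted log2 difference of 3.29 (SE 0.87, limma adjusted p = 0.936) is not a measured fold. The lipase regulators secreted by liver, Apoc3 and Apoa5, were at 19.93 and 17.72 on MBELN 3 and below background elsewhere. Sdc1, a heparan sulfate proteoglycan, was at 14.73 on MBELN 2 and 14.45 on MBELN 3, and Vldlr, a lipoprotein receptor, at 11.05 on MBELN 1.

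Fatty acid uptake genes other than Cd36 numbered 14, with 4 to 6 above background on each array except control 2, which had 0. Different family members led on different arrays: Fabp3, the heart form, at 19.38 on MBELN 1, Fabp7, the brain form, at 15.12 on control 3, and the transporter gene Slc27a2 and the liver form Fabp1 at 18.38 and 16.99 on MBELN 3. Got2, a mitochondrial aminotransferase, was above background on all arrays but control 2. The list had 12 of 14 differences above 0 (median 1.91), against 49.6% of all probe sets. It had 0 that passed limma's test, also at an unadjusted p under 0.05, where 1.37% of all probe sets were higher and 0.531% lower. Adipokine and receptor genes, 15 measured of 16, had 9 above background on MBELN 1, 7 on control 1 and MBELN 3, 4 on control 3 and MBELN 2, and 0 on control 2. Here 0 passed limma's test, also at an unadjusted p under 0.05. Of the 15 differences 10 were above 0, against 49.6% of all probe sets, and the median was 0.59. The adiponectin receptor genes Adipor1 and Adipor2 were above background on MBELN 1 to 3 and control 1, Adipor1 on control 3 as well, while Lepr, the leptin receptor gene, was below it on all 6 arrays. Adipor1 was at 13.85 on control 1 and 13.79 on MBELN 1, the arrays on which Adipoq was above background. Retnla, a resistin relative made by macrophages and fat, was above background on the same arrays (9.76 and 11.95). Cap1, an actin regulator found in most cells, was above it on all arrays but control 2.

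**Figure D4:**
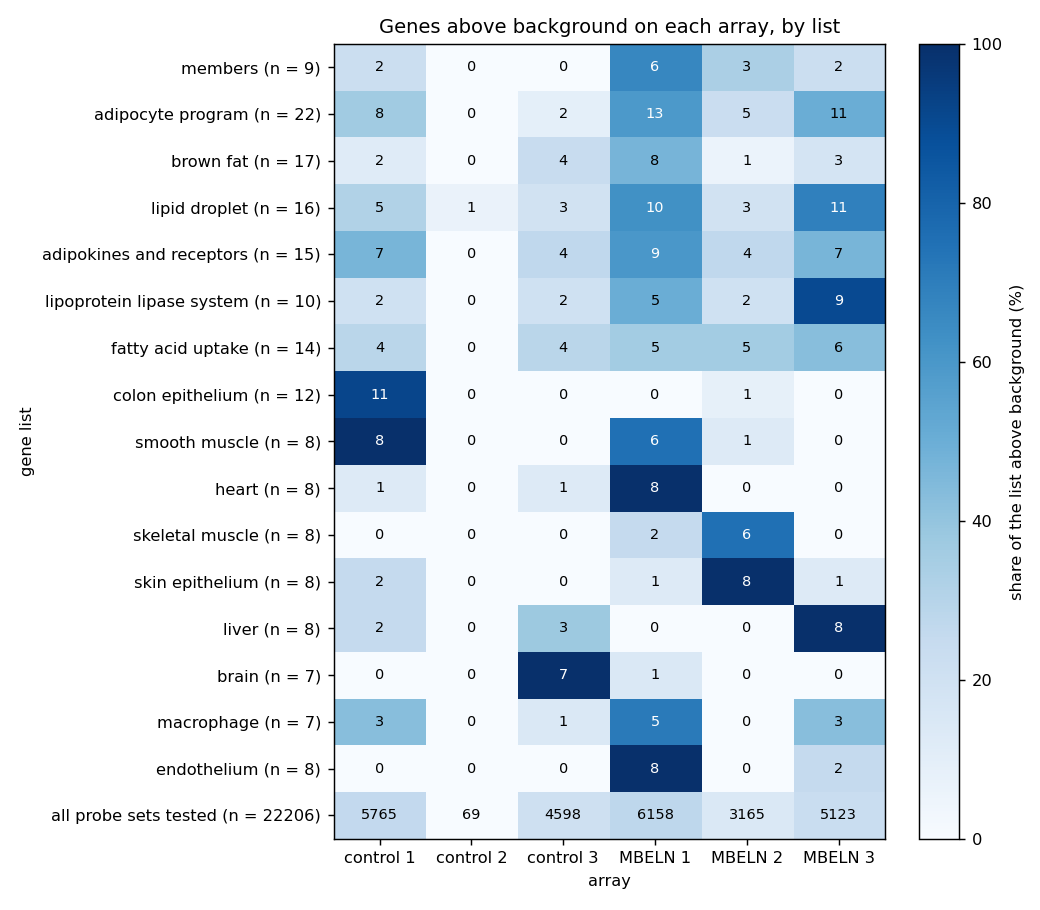
Number (printed) and share (colour, in percent) of genes above background on each of the 6 arrays, for the measured adipocyte genes ("members"), 6 related gene lists, 9 tissue and cell type marker lists and all probe sets tested. The adipocyte genes are most often above background on MBELN 1 (6 of 9), where heart and endothelium markers are too (8 of 8 each).

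The genes whose pattern over the 6 arrays was most like a member were taken from 8512 genes above background on at least 1 array. The measure was Pearson correlation over 6 points, on arrays that carried the genes of different tissues. The highest of 8512 correlations over 6 points are high by selection, so the size of r is not a result. The likest genes differed from member to member. For Adipoq they were Smtn, a smooth muscle protein (r = 0.99), Mrpl9 and Ifit1 (0.98 each). For Lpl they were Itgb1bp2, a protein of striated muscle, Ccn5 and Hrc, a calcium-binding protein of the sarcoplasmic reticulum, each with r = 1.0 after rounding. For Cd36 they were H2-Eb1, an MHC class II chain (r = 1.0 after rounding), Mndal and Lilrb4a (0.99 each). For Cidec they were Man2a1 (0.99), Retsat (0.98), a retinol saturase, and Cyp27a1, a bile acid enzyme (0.97). For Cidea they were Vangl1 (0.96), Nhp2 (0.96) and Ppl, a plaque protein of squamous epithelium (0.95). Without control 2 these correlations lay between 0.95 and 1.0, but the order was not stable. Of these 15 named genes, 3 (H2-Eb1, Nhp2 and Itgb1bp2) were still among the 3 likest to their member. The other 12 ranked down to 23, with Smtn at 11 for Adipoq. Plin4 is not counted in the 15, and its order held better. Its likest genes Prob1, Coq8a and Cdc34 ranked 2, 1 and 15 without control 2.

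Among the 6 members above background on at least 1 array, correlations over the same 6 arrays ranged widely. Plin4 and Cd36 had a Pearson r of 0.89, Plin4 and Lpl 0.83, Cd36 and Lpl 0.74, and Cidec and Cd36 0.71. Adipoq had r = 0.56 with Cd36, 0.38 with Lpl, 0.29 with Cidec, 0.17 with Plin4 and 0.10 with Cidea. The pair of droplet fusion genes Cidea and Cidec had r = 0.30. The arrays carried the genes of different tissues, and many of the values lie below background.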

How the data were processed

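Expression was read from the authors' deposited table of log2 values (28846 probe sets, 3.38 to 19.93) for 6 arrays, 3 MBELN and 3 control. The scale was read from the values. Transcriptome Analysis Console 4.0 is named in the submitters' processing notes, while the sources used here do not give the summarisation or the normalization. Values were used as deposited. Control probe sets (6640) were left out of the tests, and 22206 remained, of which 19572 have 1 symbol in the platform annotation, none has several and 2634 have none. All 9 measured members matched the reference by Entrez number. Sequences are RefSeq's, build GRCm38.p6.

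Groups were compared with limma 3.58.1 (lmFit, eBayes) in R 4.3.3, two-sided, Benjamini-Hochberg over all probe sets, at 0.05. The fit was tested on simulated data in which every probe set had the same small spread. That test therefore does not show how the fit performs at the spread of these arrays. Plots used Python 3.11.15 and matplotlib 3.10.9. Replicate numbers were not used to pair the arrays in the main fit. For arrays, their number limits the precision. Members, gene lists and the background threshold were chosen with earlier results of these data known. Named genes were all members, the 4 genes per list highest above the threshold, plus Fabp4, Pparg, Ucp1, Lipe and Gpihbp1, and the 3 genes likest to each of 5 members. Cebpa, Dgat2, Fitm2, Dio2, Ebf2, Elovl3, Prdm16, Angptl4, Lepr, Fabp7 and the 3 genes likest to Plin4 are named outside this rule, after their values were seen. Where the text compares groups and all arrays of one lay below background, it gives "at least N-fold", if over 1: the mean of the brighter group over a floor, which averages the larger of threshold and value on the arrays of the dimmer group. For Lpl, where MBELN 3 was itself below background, the same ratio is given without "at least". Alternatives are given in the closing section.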

Additional observations from a re-analysis of the deposited data

How the results depend on the processing

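The count of adipocyte genes called stayed at 0, as did that of the 94 related genes, under 14 alternatives: filters at the 25th percentile and the median, quantile normalization, array weights, equal medians, a robust prior with intensity trend, the replicate block, probe sets averaged per gene, and each array left out in turn. With the replicate block 0 were called, 0 of all probe sets passed, and 624 were under an unadjusted p of 0.05, against 422 without it. Deviations of same-numbered arrays correlated at 0.11, 0.12 and -0.05. As the arrays carried the genes of different tissues, these values cannot show whether the numbers pair the arrays. Leaving out 1 array gave 0 calls throughout (lowest 0, highest 0). The difference of Adipoq ranged from -0.90 to 2.0 with 1 array left out and was -0.97 with array weights, and that of Retn ranged from -0.91 to 0.57. The other 7 genes kept their sign under every alternative that tested them. The filters removed Lep, and that at the median Plin1 and Retn too. Cidea stayed under an unadjusted p of 0.05 in 14 of 14 alternatives, Cd36 in 11 and Plin4 in 10. These are refits of the same arrays, and averaging probe sets leaves the members' values as they were. With 1 array left out, 296 to 1380 of all 22206 probe sets were under that level. The smallest limma adjusted p of any member in any alternative was 0.737.

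The number above background depended on the threshold. With the 90th percentile it was 4 on both control 1 and MBELN 3. With the 99th percentile it was 0 on control 1, and 2, 0 and 1 for MBELN 1 to 3. Quantile normalization before the threshold left all counts as they were. The mean of several probe sets did not apply to the members, which have 1 each. Genes near the threshold, Cidec on MBELN 1 and Plin4 on MBELN 3, are limited by signal over background.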
